A study of Mus musculus with 18 samples.

Results

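The effect of a guide RNA against Nat10 was compared between MCA205 cells and TC1 cells, both grown in culture, as the difference between the sgNAT10 effect in MCA205 cells and the sgNAT10 effect in TC1 cells. The comparison used 12 of the 18 mouse libraries of the series, chosen by their labelled cell line, material and genotype. They were 3 libraries each of MCA205 cells labelled sgNAT10, wild-type (WT) MCA205 cells, TC1 cells labelled sgNAT10 and WT TC1 cells. A further 6 libraries, 3 of tumours taken on day 8 from subcutaneously implanted sgNAT10 TC1 cells and 3 of tumours from WT TC1 cells, served as a separate readout. MCA205 is a mouse fibrosarcoma line induced with methylcholanthrene. The labels call TC1 a fibrosarcoma line too, although it usually denotes mouse lung epithelial cells carrying oncogenes of a papillomavirus. The labels do not say whether the cells labelled sgNAT10 are a pool or 1 clone, and drift between separately grown cells cannot be told apart from an effect of the guide.

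NAT10 is an acetyltransferase whose product, N4-acetylcytidine, is found in rRNA, tRNA and some mRNA. Type I interferons are secreted when a cell senses foreign or misplaced nucleic acid. They act through a transcription factor complex that includes STAT2 and IRF9 on interferon-stimulated genes, whose promoters often hold a GAAANNGAAA-like element. The title of the series places NAT10 upstream of MYC, CDK2, DNMT1 and such an interferon response in tumour cells. The comparison asks which transcripts moved alike in both lines and which did not.

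Promoters of 4 interferon-stimulated genes are given here because 3 of these genes rose in both lines while the fourth, Ifih1, moved in opposite directions. Each window runs from 250 bases before to 50 bases after a start site, is taken from RefSeq on GRCm38.p6, is written 5′ to 3′ on the gene's own strand, and has every match to GAAANNGAAA or its reverse complement TTTCNNTTTC in capitals. The windows are chr4:156200769-156201068 on the minus strand, chr19:34583279-34583578 on the plus strand, chr10:128270248-128270547 on the plus strand and chr2:62646206-62646505 on the minus strand.
Isg15: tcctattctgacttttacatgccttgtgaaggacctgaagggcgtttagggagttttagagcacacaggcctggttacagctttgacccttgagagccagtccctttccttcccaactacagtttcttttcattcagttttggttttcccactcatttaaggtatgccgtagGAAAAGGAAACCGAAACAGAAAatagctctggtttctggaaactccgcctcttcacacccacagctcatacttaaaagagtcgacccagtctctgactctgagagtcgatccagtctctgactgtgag
Ifit3: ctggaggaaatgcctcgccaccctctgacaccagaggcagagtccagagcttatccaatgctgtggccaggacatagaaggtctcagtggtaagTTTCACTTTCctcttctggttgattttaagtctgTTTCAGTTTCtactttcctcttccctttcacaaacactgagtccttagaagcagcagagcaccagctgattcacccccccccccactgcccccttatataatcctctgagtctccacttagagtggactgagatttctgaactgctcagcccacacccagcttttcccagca
Stat2: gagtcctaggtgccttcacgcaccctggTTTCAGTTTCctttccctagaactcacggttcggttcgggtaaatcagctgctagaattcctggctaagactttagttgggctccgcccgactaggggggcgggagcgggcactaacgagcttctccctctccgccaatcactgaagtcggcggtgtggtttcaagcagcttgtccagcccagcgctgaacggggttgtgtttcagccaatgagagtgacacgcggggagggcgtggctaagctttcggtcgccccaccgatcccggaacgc
Ifih1: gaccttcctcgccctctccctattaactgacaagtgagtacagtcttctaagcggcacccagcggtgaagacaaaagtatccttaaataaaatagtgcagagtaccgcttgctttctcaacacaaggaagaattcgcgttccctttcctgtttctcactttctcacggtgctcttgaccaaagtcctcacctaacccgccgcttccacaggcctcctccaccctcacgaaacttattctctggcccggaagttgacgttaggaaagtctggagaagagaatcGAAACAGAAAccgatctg
Where a gene had several windows, the one with the most matches is printed, so these counts are the highest for each gene. The windows of Isg15 and Ifit3 held 3 and 2 matches, with overlaps among the 3 of Isg15, and those of Stat2 and Ifih1 held 1 match each. Relative to the start site, matches began at -78 to -66 in Isg15, -156 and -122 in Ifit3, -222 in Stat2 and 32 in Ifih1. In the shares below, a gene has a match if any of its windows has one. Of 27025 genes with a promoter window, 3.99% had at least 1 match. Among tested genes with a window the share was 3.82% of 13164, and for the listed genes that respond to type I interferon it was 47.7% of 44. Genes called higher in both lines by at least 2-fold had a match in 26.2% of 130 cases, and those called lower in both by at least 2-fold in 5.88% of 68 cases. Genes of the type I list were not taken out of the 130. Of that list, 16 of the 21 genes with a match rose in each line, with median log2 effects of 2.31 and 1.86 in MCA205 and TC1 cells. Of the 23 without a match, 19 rose in each line, with medians of 1.81 and 1.60. Genes whose effect differed between the lines had a share near that of all tested genes, 3.9% of the 2847 with a higher effect in MCA205 cells and 3.06% of the 2552 with a lower one. A match describes the letters of the window and says nothing on binding, and a window without a match says only that these letters are not in it.

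Library totals in the 12 cell libraries lay between 51661298 and 77792641 estimated counts. Levels below are FPKM values summed over the transcripts of a gene, and effects are log2 ratios of sgNAT10 to WT from edgeR's quasi-likelihood fit. Fibroblast and mesenchymal markers summed to between 661 and 1789 FPKM in the 12 libraries. Epithelial and lung markers summed to between 1.28 and 193 FPKM, below the mesenchymal sum in each library, TC1 included. Transcripts of 12 liver genes summed to between 0.687 and 80.1 FPKM in MCA205 libraries and to between 727 and 1317 FPKM in TC1 libraries. MCA205 sgNAT10 2 and MCA205 WT 1 were the lowest, with 0.772 and 0.687 FPKM, and likewise in intestine genes, with 0.532 and 5.06 FPKM. With the log2 of the mean level of liver and intestine genes as a covariate, the 16 class counts described below stayed within 1.5 times. Of the results of named genes 99 stayed on their side of the threshold, and 1 did not, the equivalence call of Ikbkg (adjusted p = 0.0607). Of the counts and medians of gene lists, 94 stayed and 11 moved. Class counts without both libraries are also given below.

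Libraries TC1 sgNAT10 1 and TC1 WT 1 stood apart from the other libraries of their groups in interferon-stimulated genes. Over the 60 type I interferon-stimulated genes tested, the median level in TC1 sgNAT10 libraries 1, 2 and 3 was 9.51, 26.5 and 27.1 FPKM, against 10.7, 3.50 and 3.14 FPKM in the TC1 WT libraries. The median in sgNAT10 library 1 was thus below that in WT library 1. In MCA205 cells the same medians were 29.2, 31.0 and 30.1 FPKM in sgNAT10 libraries and 7.0, 6.59 and 5.71 FPKM in WT libraries. Results that rest on interferon-stimulated genes are therefore given with and without this pair of TC1 libraries, a choice made after the data were seen.

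Nat10 itself did not check the labels, since its transcript was not called in either line. It stood at 13.2, 13.6 and 13.6 FPKM in sgNAT10 MCA205 cells, against 14.2, 12.5 and 13.8 FPKM in WT MCA205 cells. In TC1 cells it stood at 14.2, 12.4 and 11.7 FPKM with sgNAT10, against 13.9, 14.1 and 15.9 FPKM in WT. The difference of effects was 0.17 ± 0.14 (log2, SE; 95% interval -0.14 to 0.48) and lay inside 1.5-fold by the equivalence test described below (adjusted p = 0.0461). Among the other genes of the title, Dnmt1, the maintenance DNA methyltransferase, had 45.9, 48.9 and 50.9 FPKM in sgNAT10 MCA205 cells, against 116, 122 and 104 FPKM in WT. TC1 cells had 73.7, 73.3 and 72.6 FPKM with sgNAT10, against 93.7, 91.0 and 88.1 FPKM in WT. Dnmt1 fell in both lines without overlap between the groups, and its effect was larger in MCA205 cells, with a difference of -0.94 ± 0.08 (adjusted p = 7.33e-06). By the equivalence test its effect in TC1 cells, -0.30 ± 0.05, lay inside 1.5-fold of none (adjusted p = 0.00126). Cdk2, the kinase that drives entry into S phase, had 16.9, 18.4 and 19 FPKM in sgNAT10 MCA205 cells, against 74.2, 56.0 and 63.6 FPKM in WT, and 31.8, 37.0 and 35.6 FPKM in sgNAT10 TC1 cells, against 57.2, 79.9 and 78.0 FPKM in WT. It too fell in both lines and by more in MCA205 cells, with a difference of -0.79 ± 0.19 (adjusted p = 0.00822). Myc, the transcription factor gene, had log2 effects of -0.61 ± 0.11 and -0.36 ± 0.11 in MCA205 and TC1 cells, both called. Its difference of -0.24 (95% interval -0.59 to 0.10) was neither called (adjusted p = 0.259) nor inside 1.5-fold (adjusted p = 0.13).

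Across all genes the effects in the 2 lines showed little relation. Of 20272 genes tested, 3897 (19.2%) had a higher effect in MCA205 cells and 3392 (16.7%) a lower one, at an adjusted p under 0.05, and 3075 of these differed by at least 2-fold. In MCA205 cells 3170 genes (15.6%) were higher and 2706 (13.3%) lower with sgNAT10, 29.0% in either direction, and in TC1 cells 3665 (18.1%) were higher and 4097 (20.2%) lower, 38.3% in either direction. Both lines shared 3336 called genes, which were 56.8% of the MCA205 calls and 43.0% of the TC1 calls. Of these, 1696 moved in 1 direction, 938 up and 758 down, and 1640 moved in opposite directions. Over all tested genes Pearson's r of the effects was -0.107 and Spearman's coefficient -0.012, and over 10563 genes of at least 5 FPKM in a group r was -0.019. These values are across genes within the same 12 libraries and describe them. The last gene called in the difference, Mks1, had an adjusted p of 0.04999, and the first gene not called, Gm10832, 0.050023.

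**Figure D1:**
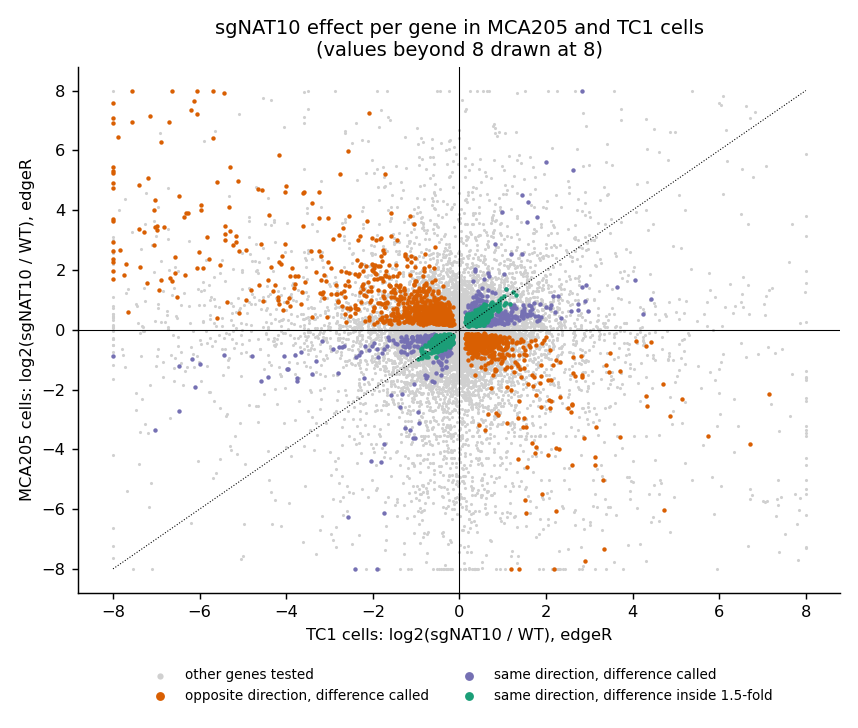
Log2 ratio of sgNAT10 to WT for each of 20272 genes in MCA205 cells (vertical axis) against TC1 cells (horizontal axis), with genes called in both lines coloured by class and values beyond 8 drawn at 8. The 1640 genes with opposite effects lie in the upper left and lower right, and the 776 genes with equal effects lie close to the dotted line of equality.

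Genes called in both lines were divided further. Opposite effects were found in 939 genes (4.63%) that were higher in MCA205 and lower in TC1 cells and in 701 genes (3.46%) that were lower in MCA205 and higher in TC1 cells. Equal effects, called in both lines in 1 direction with a difference shown to lie inside 1.5-fold at an adjusted p under 0.05, were found in 401 genes (1.98%) that rose and 375 genes (1.85%) that fell. A called difference in size was found in 265 genes (1.31%) that rose and 255 (1.26%) that fell in both lines. Of the 1696 genes of 1 direction, 96 passed both tests and are counted in both classes, and 496 passed neither. An effect in 1 line, meaning a call there and in the difference with the effect in the other line shown to lie inside 1.5-fold of none, was found in 674 genes (3.32%) up and 791 genes (3.9%) down in MCA205 cells, and in 1572 genes (7.75%) up and 1471 genes (7.26%) down in TC1 cells. The small effect in the other line may itself be called, so these classes share genes with those above. Bub1b, Cenpe, G6pdx, Gclm, Rnaseh2c, Utp3, Ccnd2 and Psph, for example, are also opposite. Pmvk and Dnmt1 also fell in both lines by different sizes. Equal rises numbered 251, 260 and 261 without MCA205 sgNAT10 2, MCA205 WT 2 and MCA205 sgNAT10 3. Rises of different size numbered 168 without MCA205 sgNAT10 2 or sgNAT10 3 and 410 without TC1 sgNAT10 1, and falls of different size 157, 159 and 162 without MCA205 sgNAT10 1, without MCA205 WT 3 and without MCA205 WT 2 or sgNAT10 2. Without both MCA205 sgNAT10 2 and MCA205 WT 1, the low liver-transcript libraries, 2085 genes were higher and 1649 lower in MCA205 cells, 625 and 417 were opposite, and 161 and 133 equal.

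Among genes higher in MCA205 and lower in TC1 cells, the largest differences held the pluripotency-associated neighbours Dppa2 and Dppa4, whose products bind together on chromatin of early embryonic cells. Dppa2, on chromosome 16 from 48303908 to 48319723 in mm10, had 6.05, 5.92 and 5.32 FPKM in sgNAT10 MCA205 cells, against 0.124, 0.188 and 0.134 FPKM in WT. TC1 cells had 0.0871, 0.101 and 0.182 FPKM with sgNAT10, against 5.05, 5.94 and 4.62 FPKM in WT. The groups did not overlap in either line, and their order was reversed between the lines, with a difference of 10.10 ± 0.36 (adjusted p = 6.34e-08). Dppa4, from 48283733 to 48294237, had 6.13, 5.85 and 6.61 FPKM in sgNAT10 MCA205 cells, against 0.132, 0 and 0.333 FPKM in WT. It was at 0 in the 3 sgNAT10 TC1 libraries, against 1.58, 0.527 and 0.444 FPKM in WT, a log2 effect of -6.34 or lower with a floor of 3 counts over the group (difference called at adjusted p = 0.000704). Rapsn, which clusters acetylcholine receptors at the synapse of muscle, averaged 8.42 ± 0.541 FPKM in sgNAT10 MCA205 cells and 0.733 ± 0.278 FPKM in WT, and 0.109 ± 0.0329 FPKM in sgNAT10 TC1 cells and 4.56 ± 1.98 FPKM in WT (SD, n = 3). The long noncoding RNA Lncenc1, known from naive mouse embryonic stem cells, averaged 39.5 ± 2.95 and 1.64 ± 0.154 FPKM in sgNAT10 and WT MCA205 cells, and 0.0962 ± 0.055 and 1.60 ± 0.46 FPKM in sgNAT10 and WT TC1 cells. Car6, a secreted carbonic anhydrase, had log2 effects of 1.88 ± 0.29 and -6.57 ± 0.32 in MCA205 and TC1 cells.

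In the reverse direction the largest differences held genes whose lowest level was in sgNAT10 MCA205 cells. Phlda2, an imprinted gene that restrains placental growth, had 0.162, 0 and 0.193 FPKM in sgNAT10 MCA205 cells, against 8.96, 8.24 and 9.40 FPKM in WT. TC1 cells had 8.39, 7.09 and 6.56 FPKM with sgNAT10, against 2.59, 0.804 and 1.59 FPKM in WT, with a difference of -8.28 ± 1.01 (adjusted p = 0.000192). Groups did not overlap in either line. Cpt1c, a brain form of carnitine palmitoyltransferase, averaged 0.128 ± 0.135 and 9.47 ± 0.265 FPKM in sgNAT10 and WT MCA205 cells, and 40.1 ± 6.31 and 13.9 ± 1.44 FPKM in sgNAT10 and WT TC1 cells. Trim54, a muscle RING finger gene, averaged 0.735 ± 0.161 and 3.72 ± 0.972 FPKM in MCA205 cells, and 59.1 ± 3.40 and 1.69 ± 0.277 FPKM in TC1 cells, in the same order. Tmem121 had log2 effects of -5.48 ± 0.40 and 1.90 ± 0.37. Asphd2 and Mycn, the neuronal relative of Myc, were at 0 in the 3 sgNAT10 MCA205 libraries, with 122 and 19 counts over the 3 WT libraries, so that their falls rest on few counts. With the floor of 3 counts over the group their log2 effects in MCA205 cells were -5.46 or lower and -2.78 or lower. In TC1 cells Asphd2 averaged 5.32 ± 0.625 and 1.16 ± 0.253 FPKM, and Mycn 10.2 ± 3.73 and 3.59 ± 2.21 FPKM, in sgNAT10 and WT.

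Few genes were shown to have equal effects of at least 2-fold. By the rule for such effects in both lines 4 genes were found with all libraries, all of them rises. Larger shared rises, as of Ifit3 and Stat2, did not pass the equivalence test, with an SE of the difference of 0.87 and 0.64. Without the pair of TC1 libraries their differences were -0.22 and -0.10, and some type I interferon-stimulated genes then lay inside 1.5-fold, as given below. Rin3, which activates RAB5 in endocytosis, had 6.34, 5.74 and 6.97 FPKM in sgNAT10 MCA205 cells, against 2.62, 2.40 and 2.94 FPKM in WT, and 8.59, 8.65 and 8.50 FPKM in sgNAT10 TC1 cells, against 3.55, 3.40 and 3.90 FPKM in WT. Its log2 effects were 1.26 ± 0.11 and 1.24 ± 0.11. Arhgap31, which turns off CDC42 and RAC1, had effects of 1.16 ± 0.08 and 1.30 ± 0.08, and the poly-ADP-ribosylating enzyme gene Parp3 had 1.13 ± 0.10 and 1.04 ± 0.10. Ikbkg, the regulatory subunit of the kinase that releases NF-kB, had 1.36 ± 0.07 and 1.07 ± 0.07, and passed both the test of a difference (adjusted p = 0.0401) and that of lying inside 1.5-fold (adjusted p = 0.0435). The equivalence call of Ikbkg was lost without any 1 library other than TC1 sgNAT10 1, with adjusted p up to 0.166. That of Rin3 was lost without MCA205 WT 3 or sgNAT10 2 (adjusted p = 0.0517 and 0.0523), and that of Parp3 without MCA205 WT 3, MCA205 sgNAT10 1 or TC1 sgNAT10 2 (adjusted p = 0.053, 0.0529 and 0.0524). By limma on log2(FPKM + 1) the equivalence calls of Parp3 and Ikbkg were lost too (adjusted p = 0.0648 and 0.376), and scaling by library size alone ended that of Ikbkg (adjusted p = 0.0897). Without both MCA205 sgNAT10 2 and WT 1 the equivalence call was lost for each of the 4 (adjusted p from 0.0757 to 0.0822), and without the pair of TC1 libraries for Rin3 (adjusted p = 0.0546).

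Falls of equal size did not reach 2-fold in both lines, so the following 5 were chosen after their values were seen. The matricellular YAP target gene Ccn1 had 199, 206 and 205 FPKM in sgNAT10 MCA205 cells, against 382, 387 and 415 FPKM in WT, and 201, 168 and 164 FPKM in sgNAT10 TC1 cells, against 368, 302 and 348 FPKM in WT. Its effects of -0.94 ± 0.10 and -0.91 ± 0.10 differed by -0.03 (95% interval -0.34 to 0.28). Amotl2, an angiomotin that binds YAP, had effects of -0.83 ± 0.07 and -0.82 ± 0.07, the chromatin reader gene Trim24 -0.81 ± 0.04 and -0.86 ± 0.04, the small GTPase gene Rnd3 -0.93 ± 0.10 and -0.86 ± 0.10, and Ddah1, which breaks down asymmetric dimethylarginine, -0.91 ± 0.07 and -0.76 ± 0.07. Their differences lay inside 1.5-fold at adjusted p between 0.00183 and 0.018. Without both MCA205 sgNAT10 2 and WT 1 these calls were lost for Ccn1 and Rnd3 (adjusted p = 0.0665 and 0.072).

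Genes that moved in 1 direction by different amounts held regulators of growth and signalling. Pvt1, the long noncoding RNA downstream of Myc on chromosome 15 from 62037986 to 62378096, had 16.1, 16.4 and 15.4 FPKM in sgNAT10 MCA205 cells, against 12, 9.51 and 10.5 FPKM in WT. In TC1 cells it had 286, 316 and 325 FPKM with sgNAT10, against 15.1, 14.1 and 16.9 FPKM in WT, so that it rose by more in TC1 cells (difference -3.71 ± 0.15, adjusted p = 8.80e-08). Id1, an inhibitor of basic helix-loop-helix factors, rose by 0.61 ± 0.07 and 2.98 ± 0.07 in MCA205 and TC1 cells, and the lipase family gene Lipo3 by 1.04 ± 0.34 and 4.43 ± 0.36. Larger rises in MCA205 cells were those of the GTPase regulator gene Arhgap6 (4.52 ± 0.26 and 1.45 ± 0.22), of Ass1, which makes the arginine precursor argininosuccinate (3.94 ± 0.34 and 0.99 ± 0.32), and of the EGF family ligand gene Btc (4.28 ± 0.32 and 1.59 ± 0.29). Sox2, a pluripotency and lung progenitor factor, fell by more in TC1 cells, with 7.87, 7.69 and 7.94 FPKM in sgNAT10 MCA205 cells, against 18.8, 18.9 and 18.1 FPKM in WT, and 0.0449, 0.153 and 0.0763 FPKM in sgNAT10 TC1 cells, against 7.30, 9.99 and 9.31 FPKM in WT. The WNT modulator gene Dkk2 (effects -0.98 ± 0.13 and -6.17 ± 0.16) and the stress hormone gene Fgf21 (-1.16 ± 0.22 and -5.98 ± 0.25) also fell by more in TC1 cells. Arhgef28, a guanine nucleotide exchange factor gene, fell by more in MCA205 cells (-6.14 ± 0.32 and -1.75 ± 0.28). So did Ttc9 (-6.26 ± 0.65 and -2.57 ± 0.48) and Mlf1, at 0 in the 3 sgNAT10 MCA205 libraries with 135 counts over WT, by edgeR. On log2(FPKM + 1) values with limma, the differences of Mlf1 and Ttc9 turned round, to 0.98 and 0.41.

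Effects in 1 line included a run of neighbouring genes on chromosome 5. Sri, a calcium-binding protein gene from 8046078 to 8069379, had 34.6, 35.2 and 33.0 FPKM in sgNAT10 MCA205 cells, against 39.3, 38.2 and 36.7 FPKM in WT. In TC1 cells it had 602, 640 and 662 FPKM with sgNAT10, against 32.3, 32.0 and 35.9 FPKM in WT. The rise was seen in TC1 cells, where the groups lay far apart, with a difference of -4.46 ± 0.09 (adjusted p = 7.87e-10). The drug efflux pump gene Abcb1b, from 8798147 to 8866315, averaged 23.1 ± 1.45 and 21.9 ± 1.40 FPKM in sgNAT10 and WT MCA205 cells, and 246 ± 40.4 and 19.2 ± 2.87 FPKM in sgNAT10 and WT TC1 cells. Crot, a peroxisomal acyltransferase gene from 8966033 to 8997324, averaged 16.1 ± 0.211 and 15.3 ± 0.402 FPKM, and 302 ± 41.8 and 16.3 ± 1.48 FPKM, in the same order. Within 250 kb of Crot 4 of 4 other genes of at least 5 FPKM were called in the same direction of difference, with a median of -3.55. The adenylate kinase gene Ak1, on chromosome 2, rose in TC1 cells alone (effects -0.01 ± 0.12 and 2.92 ± 0.11). Falls in TC1 cells with an MCA205 effect inside 1.5-fold of none were those of the guidance genes Sema5a (-0.03 ± 0.10 and -4.81 ± 0.12) and Slit2 (0.20 ± 0.11 and -3.83 ± 0.11) and of the X-linked protocadherin gene Pcdh19 (-0.29 ± 0.11 and -3.72 ± 0.11). In MCA205 cells the translational regulator gene Cpeb1 rose (4.35 ± 0.15 and 0.13 ± 0.13), as did the oxidoreductase gene Foxred2 (2.48 ± 0.14 and -0.10 ± 0.13) and Ahnak2 (2.02 ± 0.09 and 0.35 ± 0.09, the second also called). Raet1e, which encodes a ligand of the NK cell receptor NKG2D, had 0.0994, 0.0673 and 0.0928 FPKM in sgNAT10 MCA205 cells, against 3.29, 3.23 and 3.31 FPKM in WT, and 21.4, 22.1 and 19.2 FPKM in sgNAT10 TC1 cells, against 20.3, 20.8 and 21.4 FPKM in WT. The lysosomal mannosidase gene Man2b2 (-2.51 ± 0.22 and 0.00 ± 0.20) and the centriolar gene Cntln (-1.65 ± 0.16 and -0.09 ± 0.16) fell in MCA205 cells likewise.

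Most type I interferon-stimulated genes rose in both lines. Isg15, a ubiquitin-like modifier, had 198, 195 and 186 FPKM in sgNAT10 MCA205 cells, against 35.6, 29.8 and 31.7 FPKM in WT. TC1 cells had 83.3, 323 and 341 FPKM with sgNAT10, against 59.1, 11.4 and 14.1 FPKM in WT. The groups did not overlap, and library 1 of each TC1 group lay toward the other group. Ifit3, which binds antiviral signalling proteins and whose reads may be split with its near-identical relative Ifit3b, had 142, 147 and 144 FPKM in sgNAT10 MCA205 cells, against 6.65, 6.86 and 5.36 FPKM in WT, and 14.9, 95.9 and 95.5 FPKM in sgNAT10 TC1 cells, against 12.3, 3.51 and 3.55 FPKM in WT. Stat2, a subunit of the interferon-responsive factor, had 42.6, 44.5 and 44.4 FPKM in sgNAT10 MCA205 cells, against 9.31, 10.2 and 9.84 FPKM in WT. In TC1 cells Stat2 overlapped between the groups, with 7.18, 34.0 and 36.4 FPKM with sgNAT10, against 14.5, 7.29 and 6.78 FPKM in WT. The difference was not called for Ifit3 (1.10, adjusted p = 0.369) or Stat2 (0.76, adjusted p = 0.405), nor without the pair of TC1 libraries (-0.22, adjusted p = 0.197, and -0.10, adjusted p = 0.322). Isg15, Ifit3, Stat2 and Parp12 were picked as examples after their values were seen.

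Of 60 type I interferon-stimulated genes tested, 49 rose and 3 fell in MCA205 cells and 48 rose in TC1 cells, and 42 rose in both. The median effect was 2.02 in MCA205 cells and 1.89 in TC1 cells, against -0.04 and -0.03 over all genes tested. The difference of effects had a median of 0.01, with 8 genes higher and 6 lower, and the median SE of a difference was 0.66, against 0.30 over all genes. Of the 60 genes, 46 passed neither the test of a difference nor that of lying inside 1.5-fold, so for most the effects were not shown to be equal. Without TC1 sgNAT10 1 and WT 1 the median effect in TC1 cells was 2.69 and the median difference -0.57, with 7 genes higher and 32 lower in MCA205 cells, 8 inside 1.5-fold and a median SE of 0.16. Isg15 then differed by -2.10 (adjusted p = 2.06e-05), against -0.58 (95% interval -2.45 to 1.29; adjusted p = 0.649) with all libraries. Parp12, which modifies proteins with ADP-ribose, differed by -0.55 (adjusted p = 8.76e-05) without the pair and by -0.20 (adjusted p = 0.658) with it. The genes higher numbered 3 without MCA205 WT 3, 4 without MCA205 WT 2, and 5 without MCA205 WT 1, any MCA205 sgNAT10 library, TC1 WT 1 or TC1 sgNAT10 1. The genes lower numbered 11 without TC1 WT 1 and 13 without TC1 sgNAT10 1. Without both MCA205 sgNAT10 2 and WT 1, 37 rose in MCA205 cells, and the difference was higher in 3 and lower in 4.

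A few interferon and sensing genes differed between the lines, each called without any 1 library. Ifih1, the cytosolic sensor of long double-stranded RNA known as MDA5, had 0.0826, 0 and 0.106 FPKM in sgNAT10 MCA205 cells, against 0.331, 0.977 and 0.575 FPKM in WT. In TC1 cells it had 12.5, 25.7 and 26.8 FPKM with sgNAT10, against 3.40, 1.98 and 2.18 FPKM in WT. Ifih1 was thus near the floor in MCA205 cells and rose in TC1 cells, with a difference of -6.40 ± 0.95 (adjusted p = 0.000398). Its window on chromosome 2, printed above, holds 1 match to the letters GAAANNGAAA, which begins at position 32, after the start site. Sting1, the adaptor of cytosolic DNA sensing, had 9.80, 8.69 and 9.21 FPKM in sgNAT10 MCA205 cells, against 16.4, 16.3 and 17.4 FPKM in WT, and 30.7, 32.6 and 31.9 FPKM in sgNAT10 TC1 cells, against 14.2, 17.2 and 16.0 FPKM in WT. It fell in MCA205 and rose in TC1 cells, with a difference of -1.80 ± 0.09 (adjusted p = 3.31e-07). Rnaseh2c, a subunit of the enzyme that removes RNA from DNA hybrids, moved the same way (effects -0.38 ± 0.08 and 0.47 ± 0.08). Mavs, the mitochondrial adaptor below MDA5, had equal effects of 0.21 ± 0.07 and 0.19 ± 0.07 (inside 1.5-fold at adjusted p = 0.00278). Ifi27, a mitochondrial interferon-induced gene, averaged 46.8 ± 0.426 and 94.8 ± 5.93 FPKM in sgNAT10 and WT MCA205 cells, and 310 ± 24.4 and 66.3 ± 16.7 FPKM in sgNAT10 and WT TC1 cells. Mx1, an antiviral GTPase gene, had 20.1, 21.5 and 19.6 FPKM in sgNAT10 MCA205 cells, against 0.584, 0.775 and 0.506 FPKM in WT, and between 0.134 and 0.983 FPKM in all 6 TC1 libraries. Without the pair of TC1 libraries the differences of Ifih1 (-6.96), Sting1 (-1.78), Rnaseh2c (-0.73), Ifi27 (-3.36) and Mx1 (3.25) were also called, at adjusted p up to 0.000812, and Mx1 then rose in TC1 cells as well (1.84, adjusted p = 0.000377). Of the 25 sensing genes tested, 15 rose and 3 fell in MCA205 cells and 18 rose and 2 fell in TC1 cells, and the difference was higher in 4 and lower in 6. Without both MCA205 sgNAT10 2 and WT 1, 9 rose in MCA205 cells and the difference was higher in 1 and lower in 4. The higher ones numbered 1 without any 1 MCA205 WT library, MCA205 sgNAT10 1 or 3, TC1 WT 1 or TC1 sgNAT10 2, and 2 without MCA205 sgNAT10 2 or TC1 sgNAT10 3. Without the pair of TC1 libraries the difference was higher in 4 and lower in 11. Over all genes 15.6% were higher and 13.3% lower in MCA205 cells, and 18.1% higher and 20.2% lower in TC1 cells. The difference was higher in 19.2% and lower in 16.7% of all genes, and counts of each list are to be read beside these shares. With all libraries the falls in MCA205 cells and the higher differences of the sensing genes lay near them.

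With all libraries, most genes induced by interferon-gamma and most of MHC class I presentation rose in MCA205 cells, and fewer were called in TC1 cells. The median level of the interferon-gamma-induced genes was 1.40, 1.93 and 2.25 FPKM in TC1 sgNAT10 libraries 1, 2 and 3. In TC1 WT libraries it was 1.53, 1.07 and 0.448 FPKM, so library 1 of the sgNAT10 group lay below library 1 of WT. Psmb9, an immunoproteasome subunit, had 17.7, 17.3 and 16.3 FPKM in sgNAT10 MCA205 cells, against 3.8, 4.30 and 4.17 FPKM in WT, and 3.94, 7.4 and 7.72 FPKM in sgNAT10 TC1 cells, against 12.1, 10.7 and 9.20 FPKM in WT. It rose in MCA205 and fell in TC1 cells, by edgeR, with a difference of 2.82 ± 0.31 (adjusted p = 5.48e-05). The transcription factor gene Irf1 averaged 36.1 ± 1.33 and 14.8 ± 2.03 FPKM in sgNAT10 and WT MCA205 cells, and 14.1 ± 2.80 and 13.9 ± 2.05 FPKM in sgNAT10 and WT TC1 cells (difference 1.26 ± 0.21, adjusted p = 0.000771). Nlrc5, the transactivator of MHC class I genes, had effects of 1.5 ± 0.15 and -0.27 ± 0.15 (difference 1.77 ± 0.21, adjusted p = 0.000109). The immunity-related GTPase gene Iigp1 had effects of 3.69 ± 0.49 and -0.04 ± 0.48 (difference 3.73 ± 0.69). Pdia3, a chaperone of peptide loading, rose in TC1 cells (0.97 ± 0.10), with -0.18 ± 0.10 in MCA205 cells. Psme1, a proteasome activator subunit, had equal effects of 0.92 ± 0.07 and 0.76 ± 0.07 (adjusted p = 0.0118, with 0.05 without TC1 sgNAT10 3 and 0.0633 without both MCA205 sgNAT10 2 and WT 1). Without the pair of TC1 libraries the differences were 2.46 for Psmb9, 1.03 for Irf1, 1.57 for Nlrc5, 3.50 for Iigp1 and -0.97 for Pdia3, each called at adjusted p up to 0.00834, and the fall of Psmb9 in TC1 cells was -0.33 (adjusted p = 0.0289). Of 28 interferon-gamma-induced genes, 20 rose and 1 fell in MCA205 cells, 8 rose and 1 fell in TC1 cells, and the difference was higher in 10 and lower in 1, with a median of 1.78. Without the pair of TC1 libraries the difference was higher in 6 and lower in 3, with a median of 1.01, and without TC1 WT 1 or TC1 sgNAT10 1 alone it was lower in 2. The 1 fall in TC1 cells became 5 without TC1 WT 3, 3 without TC1 sgNAT10 1, and 0 without TC1 WT 1 or WT 2. With 1 library left out the TC1 median lay between -0.28 and 0.44 and the median difference between 1.28 and 2.28. The TC1 median of this list, 0.02, turned to -0.01 when libraries were scaled by size alone. Of 24 genes of MHC class I presentation, 18 rose and 2 fell in MCA205 cells, 7 rose and 4 fell in TC1 cells, and the difference was higher in 12 and lower in 4. Rises in TC1 cells numbered 12 without TC1 sgNAT10 1 and 4 without TC1 sgNAT10 3, and 1 gene fell in MCA205 cells without any 1 MCA205 library, TC1 WT 2 or TC1 sgNAT10 2. Without the pair, 14 rose and 4 fell in TC1 cells, and the difference was higher in 10 and lower in 4.

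**Figure D2:**
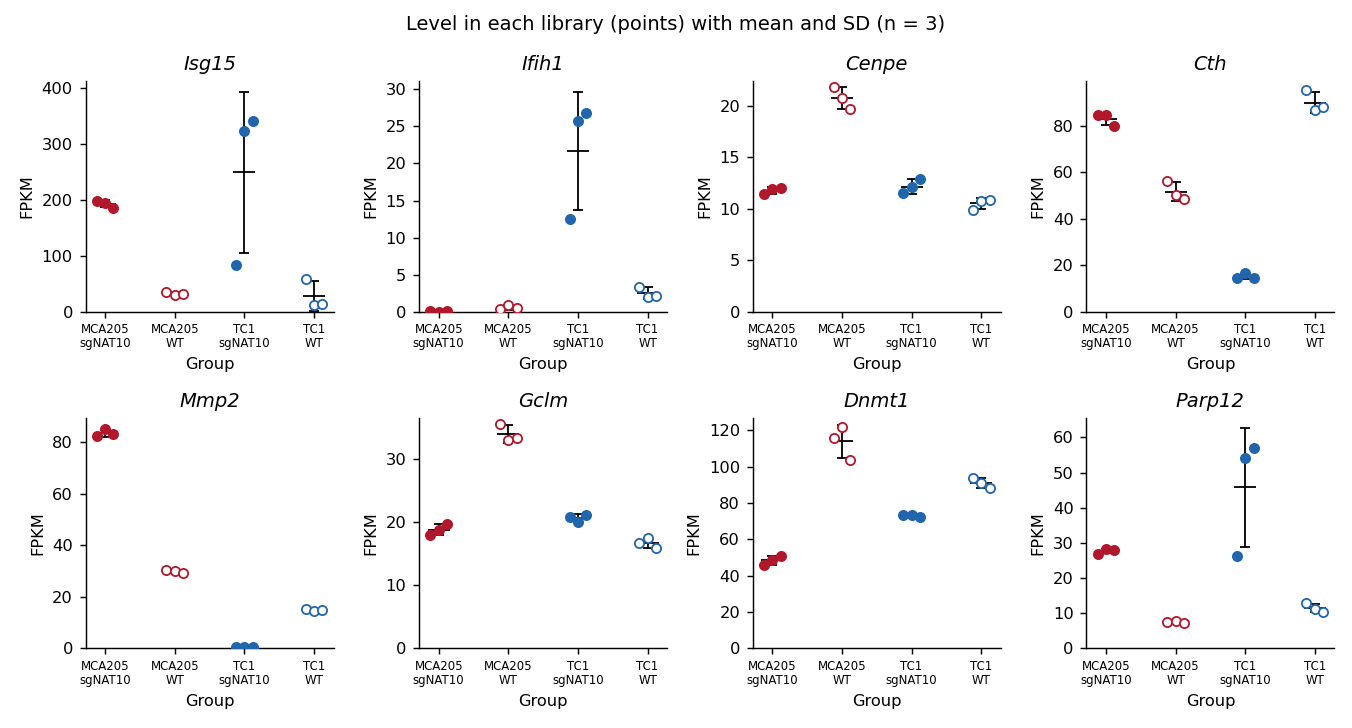
Level of 8 genes in FPKM (vertical axes, from 0) in each of the 12 libraries, in the order sgNAT10 and WT MCA205 cells, sgNAT10 and WT TC1 cells, with the mean and SD of 3 libraries in black and sgNAT10 libraries filled. Isg15 and Parp12 are spread widely over the 3 sgNAT10 TC1 libraries, while Cenpe, Cth, Mmp2, Gclm and Dnmt1 are tight within groups and move differently in the 2 lines.

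Of 30 inflammatory cytokines and NF-kB targets 8 were called different between the lines, each with a higher effect in MCA205 cells. Relb, an NF-kB subunit of the noncanonical pathway, had 19.5, 18.2 and 18.8 FPKM in sgNAT10 MCA205 cells, against 15.4, 13.2 and 12.9 FPKM in WT, and 8.46, 8.60 and 7.6 FPKM in sgNAT10 TC1 cells, against 23.3, 14.3 and 20.9 FPKM in WT. It rose in MCA205 and fell in TC1 cells, with a difference of 1.77 ± 0.19 (adjusted p = 4.86e-05), and so did its partner gene Nfkb2 (effects 0.39 ± 0.09 and -0.84 ± 0.09). The adhesion molecule gene Vcam1 averaged 33.5 ± 1.05 and 57.4 ± 3.33 FPKM in sgNAT10 and WT MCA205 cells, which was not called (adjusted p = 0.0679), and 1.42 ± 0.108 and 10.7 ± 6.40 FPKM in sgNAT10 and WT TC1 cells. Of the 30, 11 rose and 1 fell in MCA205 cells, 3 rose and 7 fell in TC1 cells, and 20 passed neither the test of a difference nor that of lying inside 1.5-fold. The 11 rises in MCA205 cells became 6 without MCA205 WT 2 or WT 3 and 4 without both MCA205 sgNAT10 2 and WT 1, and the 1 fall became 3 without TC1 WT 1 and 2 without TC1 WT 3. In TC1 cells 7 rose without TC1 WT 1, and 11 fell without TC1 WT 2 or WT 3. The TC1 median was 0.14 without TC1 WT 1, against -0.47 with all libraries, and the median difference 0.56, against 1.65. The difference was higher in 14 and lower in 1 without TC1 WT 2, and lower in 1 without TC1 WT 1. Without the pair of TC1 libraries 8 rose in TC1 cells.

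Most mitotic genes of the G2/M list fell in MCA205 cells, and most rose in TC1 cells. The mitotic kinesin gene Kif11 had 18.6, 19.8 and 20.3 FPKM in sgNAT10 MCA205 cells, against 32.7, 30.1 and 31.9 FPKM in WT, and 24.4, 26.6 and 26.9 FPKM in sgNAT10 TC1 cells, against 15.2, 15.5 and 16.6 FPKM in WT. It fell in MCA205 and rose in TC1 cells without overlap between groups (difference -1.41 ± 0.09, adjusted p = 1.69e-06). Bub1b, a spindle checkpoint kinase gene (-0.59 ± 0.05 and 0.28 ± 0.05), and the kinetochore motor gene Cenpe (-0.77 ± 0.06 and 0.21 ± 0.06) moved the same way. Of 28 G2/M genes, 24 fell in MCA205 cells, 19 rose and 2 fell in TC1 cells, 17 were opposite, and the difference was lower in 25, against 16.7% of all genes. Without TC1 sgNAT10 3 it was also higher in 1, and without the pair of TC1 libraries 14 rose and 4 fell in TC1 cells. The medians were -0.48 and 0.28 in MCA205 and TC1 cells and -0.69 for the difference. In the TC1 tumours the median effect of this list was -1.03. In bulk RNA fewer cells of a state and less RNA per cell cannot be told apart. Of 33 G1/S genes 7 rose and 10 fell in MCA205 cells and 16 rose and 6 fell in TC1 cells, with a difference higher in 4 and lower in 19. Their falls in TC1 cells lay near the 20.2% of all genes. In MCA205 cells 6 fell without both MCA205 sgNAT10 2 and WT 1. Mcm4, a subunit of the replicative helicase, averaged 52.1 ± 1.71 and 70.3 ± 4.86 FPKM in sgNAT10 and WT MCA205 cells, and 95.3 ± 1.24 and 50.8 ± 3.67 FPKM in sgNAT10 and WT TC1 cells. The cyclin D gene Ccnd2 went the other way (0.32 ± 0.10 and -1.61 ± 0.10), and the origin licensing gene Cdt1 fell in TC1 cells (-1.01 ± 0.06), with -0.09 ± 0.06 in MCA205 cells. Gins2, a part of the same helicase, had equal falls of -0.36 ± 0.08 and -0.31 ± 0.08 (inside 1.5-fold at adjusted p = 0.00668).

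**Figure D3:**
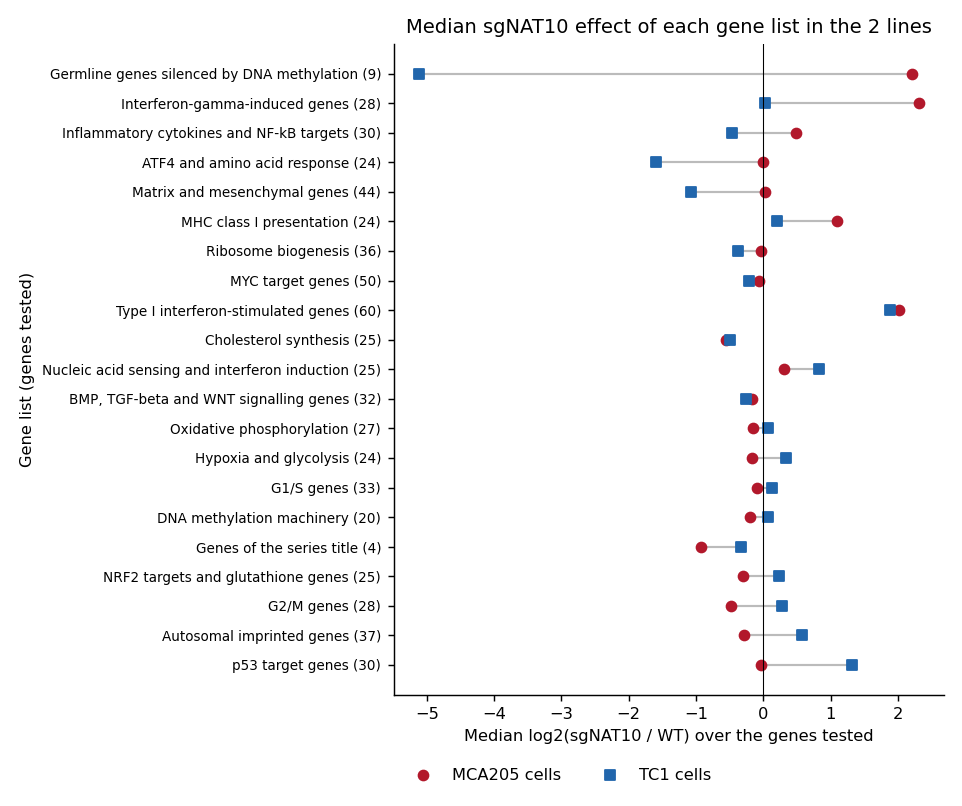
Median log2 ratio of sgNAT10 to WT (horizontal axis) of each gene list in MCA205 cells (circles) and TC1 cells (squares), with the number of genes tested in brackets and lists ordered by their median difference from the highest at the top. The type I interferon and cholesterol lists have close medians in both lines, whereas the G2/M, p53 target, ATF4, matrix and germline lists have medians far apart. The germline medians rest on the 9 genes that passed the filter, most of which may have passed through WT TC1 cells.

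Most p53 target genes rose in TC1 cells, and they were divided in MCA205 cells. Btg2, an antiproliferative p53 target, had 1.58, 1.51 and 1.57 FPKM in sgNAT10 MCA205 cells, against 2.51, 3.21 and 2.56 FPKM in WT, and 16.4, 18.8 and 18.6 FPKM in sgNAT10 TC1 cells, against 7.09, 5.89 and 6.28 FPKM in WT (difference -2.31 ± 0.15, adjusted p = 2.01e-06). The groups lay apart in both lines, in opposite order. Psrc1, a microtubule regulator gene (-2.39 ± 0.15 and 1.38 ± 0.14), and Ercc5, a nuclease gene of excision repair (-0.38 ± 0.09 and 1.66 ± 0.09), were opposite too. Tnfrsf10b, the death receptor of TRAIL, rose equally (0.76 ± 0.08 and 0.86 ± 0.08, inside 1.5-fold at adjusted p = 0.00838). Of 30 genes 9 rose and 7 fell in MCA205 cells and 20 rose and 3 fell in TC1 cells, with a difference lower in 18 and higher in 4 (higher in 2 without MCA205 WT 2, MCA205 sgNAT10 3 or TC1 WT 3). Over all genes the difference was lower in 16.7% and higher in 19.2%.

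Most genes of the ATF4 response fell in TC1 cells. Cth, which makes cysteine from cystathionine, had 84.8, 84.6 and 80.2 FPKM in sgNAT10 MCA205 cells, against 56.2, 50.2 and 48.7 FPKM in WT, and 14.6, 16.6 and 14.7 FPKM in sgNAT10 TC1 cells, against 95.3, 86.7 and 88.2 FPKM in WT. It rose in MCA205 and fell in TC1 cells, with a difference of 3.22 ± 0.10 (adjusted p = 7.60e-09). The last enzyme gene of serine synthesis, Psph, was opposite as well (0.34 ± 0.07 and -2.09 ± 0.07), and Pycr1, of proline synthesis, fell in TC1 cells (-3.04 ± 0.07), with 0.13 ± 0.07 in MCA205 cells. Of 24 genes 6 rose and 2 fell in MCA205 cells and 20 fell in TC1 cells, and the difference was higher in 18 and lower in 1 (2 without TC1 sgNAT10 1), with medians of -0.01, -1.60 and 1.62. Rises in MCA205 cells numbered 3 without MCA205 WT 1, WT 2 or sgNAT10 3, and falls 4 without TC1 WT 1 and 5 without TC1 sgNAT10 1, while 20 fell in TC1 cells without any 1 library. Over all genes 15.6% rose and 13.3% fell in MCA205 cells, and 20.2% fell in TC1 cells.

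Most matrix genes fell in TC1 cells, and in MCA205 cells more rose than fell. The gelatinase gene Mmp2, on chromosome 8 from 92827291 to 92853420, had 82.5, 85.2 and 83.0 FPKM in sgNAT10 MCA205 cells, against 30.3, 30 and 29.2 FPKM in WT, and 0.752, 0.498 and 0.703 FPKM in sgNAT10 TC1 cells, against 15.4, 14.4 and 15.0 FPKM in WT. The groups were far apart in both lines, in opposite order (difference 6.11 ± 0.12, adjusted p = 7.87e-10). The proteoglycan gene Bgn (0.38 ± 0.09 and -5.59 ± 0.09) and the collagen gene Col6a2 (0.43 ± 0.07 and -3.40 ± 0.07) were opposite too. Of 44 genes 14 rose and 7 fell in MCA205 cells, 3 rose and 26 fell in TC1 cells, 12 were opposite, and the difference was higher in 25 and lower in 4. The falls in MCA205 cells lay near the 13.3% of all genes.

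Among germline genes that DNA methylation keeps silent in somatic cells, most of those tested fell in TC1 cells. Of 26 genes on the list 9 could be tested, since most had too few counts, so this count describes the expressed ones only. Their median level was 5.34 to 5.94 FPKM in WT TC1 libraries. It was 0.0497 to 0.0871 FPKM in sgNAT10 TC1 and 0.077 to 0.149 FPKM in WT MCA205 libraries. A gene that passes the filter only through WT TC1 cells can only fall there, with a higher difference. The counts of falls in TC1 cells and of higher differences may thus be set in part by the filter. Among the 9, 5 rose in MCA205 cells, 1 rose and 7 fell in TC1 cells, 4 did both, and the difference was higher in 7. Rhox5, an X-linked homeobox gene, had 47.7, 50.3 and 47.7 FPKM in sgNAT10 MCA205 cells, against 9.31, 10.6 and 9.71 FPKM in WT, and 81.3, 84.1 and 75.8 FPKM in sgNAT10 TC1 cells, against 166, 183 and 188 FPKM in WT (difference 3.37 ± 0.12, adjusted p = 2.70e-08). In the DNA methylation machinery, of 20 genes 4 rose and 10 fell in MCA205 cells and 6 rose and 5 fell in TC1 cells, with a difference higher in 5 and lower in 10. Over all genes 15.6% were higher and 13.3% lower in MCA205 cells, 18.1% higher and 20.2% lower in TC1 cells, and 19.2% higher and 16.7% lower in the difference, so the rises in MCA205 cells, the falls in TC1 cells and the higher differences of this list lay near the background. In MCA205 cells 5 fell without both MCA205 sgNAT10 2 and WT 1. The methyltransferase cofactor gene Dnmt3l averaged 5.91 ± 0.848 and 1.78 ± 0.246 FPKM in sgNAT10 and WT MCA205 cells, and 1.63 ± 0.154 and 4.95 ± 0.555 FPKM in sgNAT10 and WT TC1 cells. Gadd45a, a stress gene linked to demethylation, fell in TC1 cells (-3.36 ± 0.26), with 0.35 ± 0.25 in MCA205 cells. The thymine glycosylase gene Tdg fell equally (-0.53 ± 0.07 and -0.56 ± 0.07, inside 1.5-fold at adjusted p = 0.00366). Of 37 imprinted genes tested, 6 rose and 5 fell in MCA205 cells and 8 rose and 4 fell in TC1 cells, and the difference was higher in 6 and lower in 9. The rises and falls in MCA205 cells lay near the shares of all genes, and 9 fell in MCA205 cells without MCA205 WT 1. Among these Igf2r, which clears IGF2, was opposite (0.66 ± 0.06 and -0.63 ± 0.06), and the tetraspanin gene Cd81 rose in TC1 cells (1.19 ± 0.09), with -0.05 ± 0.09 in MCA205 cells.

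In each line most cholesterol genes fell. Srebf2, the transcription factor that drives the pathway, had 88.3, 89.1 and 91.6 FPKM in sgNAT10 MCA205 cells, against 138, 134 and 141 FPKM in WT, and 75.7, 73.1 and 74.3 FPKM in sgNAT10 TC1 cells, against 113, 108 and 113 FPKM in WT. Its effect was -0.56 ± 0.06 in each line, and the difference lay inside 1.5-fold (adjusted p = 0.00201). Of 25 genes 3 rose and 17 fell in MCA205 cells and 1 rose and 19 fell in TC1 cells, and 14 fell in both. The difference was higher in 6 and lower in 5, near the 19.2% and 16.7% of all genes, and it was inside 1.5-fold in 5. It was higher in 11 without the pair of TC1 libraries. The kinase gene Pmvk fell by more in TC1 cells (-0.34 ± 0.06 and -0.94 ± 0.06).

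Among NRF2 targets and glutathione genes more fell than rose in MCA205 cells, and more rose than fell in TC1 cells. Of 25 NRF2 targets and glutathione genes, 5 rose and 11 fell in MCA205 cells and 11 rose and 1 fell in TC1 cells, with a difference lower in 13 and higher in 3. Over all genes 15.6% rose and 13.3% fell in MCA205 cells, and the difference was lower in 16.7% and higher in 19.2%. Gclm, a subunit of the first enzyme of glutathione synthesis, had 18.0, 18.8 and 19.7 FPKM in sgNAT10 MCA205 cells, against 35.6, 33.0 and 33.3 FPKM in WT, and 20.9, 20 and 21.1 FPKM in sgNAT10 TC1 cells, against 16.7, 17.5 and 15.9 FPKM in WT. It was opposite in the 2 lines, as was G6pdx, the NADPH-forming enzyme of the pentose phosphate pathway (-0.51 ± 0.05 and 0.39 ± 0.05). The glutathione transferase gene Gsta4 fell in MCA205 cells (-4.85 ± 0.16), with -0.24 ± 0.15 in TC1 cells, while the quinone reductase gene Nqo1 rose equally (0.54 ± 0.08 and 0.63 ± 0.08, inside 1.5-fold at adjusted p = 0.0086, and 0.0557 without both MCA205 sgNAT10 2 and WT 1). Of 36 ribosome biogenesis genes 1 rose and 4 fell in MCA205 cells (3 and 7 without TC1 sgNAT10 1) and 3 rose and 22 fell in TC1 cells. The difference there was higher in 14 and lower in 3. It was higher in 27 without TC1 sgNAT10 1 and in 9 without MCA205 WT 2, MCA205 sgNAT10 3, TC1 WT 3 or TC1 sgNAT10 2. The kinase gene Riok2 fell in TC1 cells (-0.98 ± 0.07), with -0.11 ± 0.07 in MCA205 cells, as did the processome gene Nop14 (-0.78 ± 0.08, with 0.01 ± 0.08), while Utp3, of the same processome, was opposite (-0.18 ± 0.06 and 0.45 ± 0.06). Of 50 MYC target genes 1 rose and 7 fell in MCA205 cells and 6 rose and 18 fell in TC1 cells, with a difference higher in 13 and lower in 6, and higher in 23 without TC1 sgNAT10 1. Falls in MCA205 cells, near the 13.3% of all genes, numbered 4 without MCA205 WT 1 or sgNAT10 1 and 12 without TC1 sgNAT10 1, and those in TC1 cells 34 without TC1 sgNAT10 1. The rises in TC1 cells and the lower differences of this list were below the shares of all genes. Oxidative phosphorylation had 12 of 27 genes lower and 2 higher in the difference (1 without any 1 library other than MCA205 sgNAT10 3 and TC1 sgNAT10 1), and 14 inside 1.5-fold. Of 24 hypoxia and glycolysis genes 4 fell in MCA205 cells and 8 rose and 5 fell in TC1 cells, with the falls near the shares of all genes in both lines. Without TC1 sgNAT10 1, 11 fell in MCA205 cells and 15 rose in TC1 cells, and 5 rose there without TC1 sgNAT10 2 or sgNAT10 3. The difference was higher in 4 and lower in 9, lower in 15 without TC1 sgNAT10 1, and lower in 5 without MCA205 WT 3, any 1 MCA205 sgNAT10 library, TC1 WT 2, TC1 sgNAT10 2 or TC1 sgNAT10 3. Of 32 BMP, TGF-beta and WNT signalling genes 8 rose and 7 fell in MCA205 cells and 6 rose and 11 fell in TC1 cells, with a difference higher in 9 and lower in 8. The rises in TC1 cells lay near the 18.1% of all genes, and 11 fell in MCA205 cells without MCA205 WT 1.

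Some calls within 1 line were lost when a pair of libraries was left out. When MCA205 sgNAT10 2 and WT 1 were left out, the effects in MCA205 cells of Lipo3 (adjusted p = 0.14), Relb (0.0854), Nfkb2 (0.052), Ercc5 (0.0523), Ccnd2 (0.115), Gins2 (0.0839), Utp3 (0.221), Mavs (0.137), Mycn (0.104) and Isg15 (0.0567) were not called by edgeR. Those of Mavs and Stat2 in TC1 cells were not called either (adjusted p = 0.0903 and 0.0503). The sizes of the effects changed little. In MCA205 cells they were 2.66 for Isg15 and 1.03 for Lipo3, against 2.59 and 1.04 with all libraries. Those of Gins2 (-0.29, against -0.36) and Utp3 (-0.15, against -0.18) were smaller. Stat2 had 1.43 in TC1 cells in both fits, and why calls were lost was not tested. Without TC1 sgNAT10 1 and WT 1 the effects in TC1 cells of Phlda2 (adjusted p = 0.0669), Mycn (0.326), Ass1 (0.0938), Myc (0.17) and Mavs (0.13) were not called, while Nat10 was called lower there (-0.30, adjusted p = 0.0352). Vcam1 was then called lower in MCA205 cells (adjusted p = 4.20e-06). The differences of Lipo3, Relb, Nfkb2, Ercc5, Ccnd2, Utp3, Phlda2, Mycn and Ass1 were called with either pair left out.

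The effects were unevenly spread over chromosomes, which the choice of genes did not use. Among genes of at least 5 FPKM, 67.0% of 330 genes on chromosome 16 were higher with sgNAT10 in TC1 cells, with a median effect of 0.55, against 24.2% and 0.02 in MCA205 cells. The difference was lower in MCA205 for 53% of these genes, against 25.7% of all 10563. On chromosome 12 the TC1 median was 0.27, with 51.3% of 394 genes higher, and on chromosome 17 it was -0.31, with 53.6% of 524 genes lower. In TC1 tumours the medians of chromosomes 16, 12 and 17 were -0.07, -0.02 and -0.41, against -0.15 over all these genes. In MCA205 cells 48.7% of 269 genes on chromosome 18 and 46.1% of 519 genes on chromosome 3 were lower, with medians of -0.29 and -0.24, against -0.02 and 0.04 for the same chromosomes in TC1 cells. The share of genes with equal rises was 9.48% on the X chromosome and 8.18% on chromosome 16, against 3.71% of all, and that of equal falls was 13% on chromosome 17, against 3.47%. These are descriptions without a test, and copy number was not measured here.

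**Figure D4:**
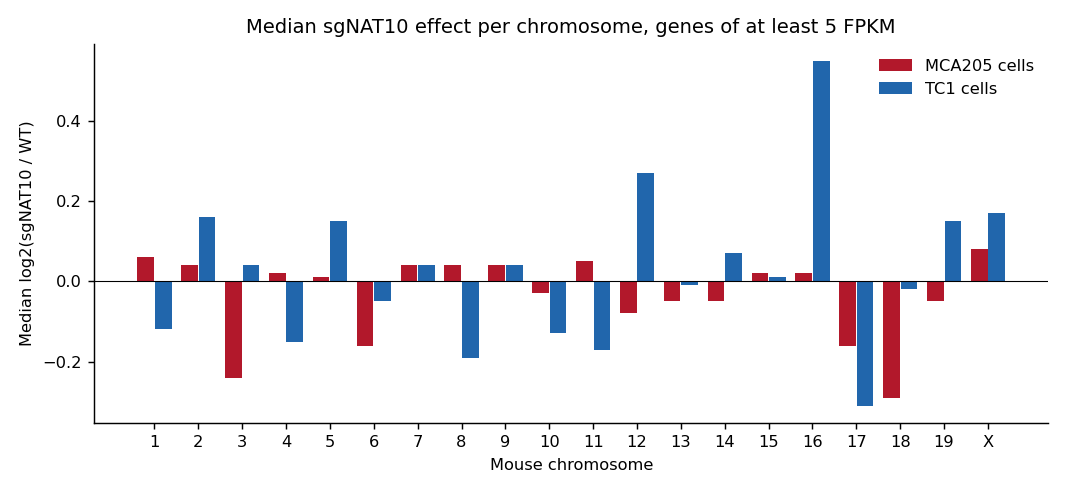
Median log2 ratio of sgNAT10 to WT (vertical axis) for genes of at least 5 FPKM on each mouse chromosome (horizontal axis) in MCA205 cells (left bar) and TC1 cells (right bar). Chromosome 16 has the highest TC1 median at 0.55 and chromosome 17 the lowest at -0.31, while the lowest MCA205 medians are -0.29 on chromosome 18 and -0.24 on chromosome 3.

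The tumour libraries share no sample with the 12 cell libraries and hold host cells as well as TC1 cells. In tumours 7.65% of 19244 genes tested were higher and 9.72% lower with sgNAT10. Among genes of at least 5 FPKM in cells, 5.42% were higher and 15.9% lower in tumours. Genes that fell in MCA205 and rose in TC1 cells were higher in tumours in 2.55% and lower in 28.2% of 627 cases, so they were lower in TC1 tumours more often than higher. Genes that rose in MCA205 and fell in TC1 cells were higher in 9.25% and lower in 10.2% of 703. Equal rises were higher in 7.14% and lower in 9.69% of 392, and equal falls were higher in 0.817% and lower in 27.0% of 367. Genes with an effect in 1 line that rose in TC1 cells were higher in 2.95% and lower in 16.5% of 1524. Those that fell in MCA205 cells were lower in 27.3% of 762, and this class shares genes with the opposite effects. Sri, Crot, Abcb1b and Ak1, which rose in TC1 cells, were not called in tumours (log2 effects -0.09, 0.38, -0.23 and -0.54). Of the genes named above that rose by more in TC1 cells, Pvt1 (-0.44) and Id1 (-0.12) were not called. Lipo3 was higher (0.90, adjusted p = 0.0249). Among the opposite genes named above, Dppa2 was higher in sgNAT10 tumours (log2 effect 2.56, adjusted p = 0.0142) and Phlda2 lower (-5.07, adjusted p = 0.0211), the direction of MCA205 cells in both cases, whereas Trim54 was higher (2.34, adjusted p = 0.0488), the direction of TC1 cells. Mcm4 (-1.30, adjusted p = 0.00226) and Kif11 (-0.98, adjusted p = 0.00679) fell in tumours, as in MCA205 cells. Cth fell too (-1.91, adjusted p = 0.018), as in TC1 cells. The other named opposite genes called in tumours were Dppa4, Asphd2, Tmem121, Psmb9, Psrc1, Bub1b, Cenpe, Bgn and Gclm, in the direction of MCA205 cells. Rapsn, Nfkb2 and Ercc5 were called in the direction of TC1 cells. The effects of cells and tumours were fitted apart and the difference between them was not tested here.

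**Figure D5:**
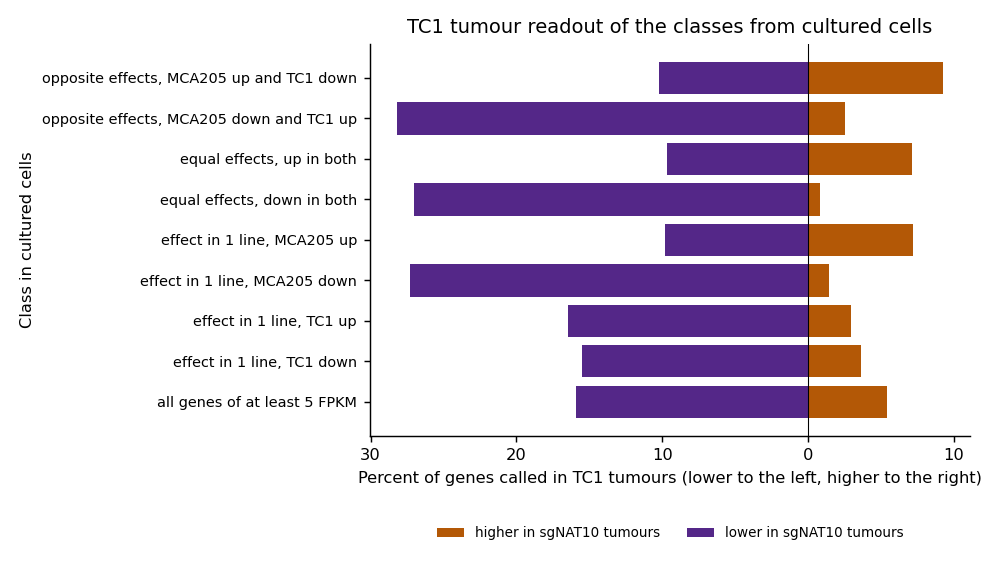
Percent of the genes of each class from cultured cells (rows) that were called lower (left of 0) or higher (right of 0) in sgNAT10 TC1 tumours against WT TC1 tumours, for genes of at least 5 FPKM in cells. The classes of genes that fell in MCA205 cells, some of which share genes, are lower in tumours in 27.0% to 28.2% of cases, against 15.9% of all genes.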

How the data were processed

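RNA was measured by sequencing in 12 libraries of cultured cells and 6 of tumours. Per the submitters' processing notes, reads went through FastQC, Trim Galore, Bowtie2 and featureCounts on mm10, with versions not given in the sources used here. The authors deposited, per transcript, FPKM values and estimated counts, whose columns named KO were taken as the libraries titled sgNAT10. Both were summed per gene. Values of genes with near-identical copies, and of genes that overlap others or lie antisense to them, are uncertain.

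Counts of 20272 genes that passed filterByExpr were fitted by edgeR 4.0.16 in R 4.3.3, with TMM factors, 4 group means and the quasi-likelihood test. The 4 groups shared 1 estimate of spread per gene, so calls in 1 line also depended on libraries of the other. P-values were adjusted by Benjamini-Hochberg over all genes, with calls at 0.05. Equality used 2 one-sided tests inside 1.5-fold with the fit's SE. The tumours were fitted alone. In simulated data of 19998 genes, 58% of 2-fold and 76% of 4-fold differences were called, and 52.3% of equal 2-fold effects were called equal. DESeq2 1.42.0 and limma 3.58.1 served as alternatives, beside other scalings, filters, margins and libraries left out. No label says that libraries came from separate cultures, so p-values measure only the spread between them.

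Members and gene lists were chosen with earlier results of these data known. Named genes had at least 5 FPKM in a group and the largest differences or effects in their class, or the smallest p in a list, and a selection of them is given. The replicate numbers did not pair the samples.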

Additional observations from a re-analysis of the deposited data

Results flagged for a closer look

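The sgNAT10 effect differed between the lines, by the edgeR test of the difference itself at an adjusted p under 0.05, in the genes below. Values are log2 differences, the effect in MCA205 cells minus that in TC1 cells, and no explanation was tested. Among genes with opposite effects, the difference was higher in MCA205, at 10.10 for Dppa2, 8.88 for Rapsn, 8.64 for Lncenc1, 8.45 for Car6, 6.11 for Mmp2, 5.97 for Bgn, 3.83 for Col6a2, 3.54 for Dnmt3l, 3.37 for Rhox5, 3.22 for Cth and 2.82 for Psmb9. It was also 2.44 for Psph, 1.94 for Ccnd2, 1.77 for Relb, 1.29 for Igf2r and 1.23 for Nfkb2. Among genes with opposite effects, the difference was lower in MCA205, at -8.28 for Phlda2, -7.67 for Cpt1c, -7.45 for Trim54, -7.38 for Tmem121, -6.40 for Ifih1, -3.77 for Psrc1, -3.26 for Ifi27, -2.31 for Btg2, -2.04 for Ercc5, -1.80 for Sting1 and -1.41 for Kif11. It was also -1.34 for Mcm4, -1.25 for Gclm, -0.98 for Cenpe, -0.90 for G6pdx, -0.87 for Bub1b, -0.85 for Rnaseh2c and -0.63 for Utp3. Among genes called in 1 direction in both lines, the difference was higher in MCA205, at 5.25 for Sox2, 5.19 for Dkk2, 4.81 for Fgf21, 3.06 for Arhgap6, 2.95 for Ass1, 2.69 for Btc, 1.67 for Ahnak2, 0.60 for Pmvk and 0.29 for Ikbkg. Among genes called in 1 direction in both lines, the difference was lower in MCA205, at -4.39 for Arhgef28, -3.71 for Pvt1, -3.69 for Ttc9, -3.39 for Lipo3, -2.37 for Id1, -0.94 for Dnmt1 and -0.79 for Cdk2. Among genes called in 1 line, the difference was higher in MCA205, at 4.78 for Sema5a, 4.38 for Mx1, 4.22 for Cpeb1, 4.04 for Slit2, 3.73 for Iigp1, 3.71 for Gadd45a, 3.43 for Pcdh19, 3.16 for Pycr1, 2.57 for Foxred2, 2.10 for Vcam1 and 1.77 for Nlrc5. It was also 1.26 for Irf1, 0.92 for Cdt1, 0.87 for Riok2 and 0.79 for Nop14. Among genes called in 1 line, the difference was lower in MCA205, at -4.96 for Raet1e, -4.61 for Gsta4, -4.46 for Sri, -4.14 for Crot, -3.60 for Abcb1b, -2.93 for Ak1, -2.50 for Man2b2, -1.56 for Cntln, -1.24 for Cd81 and -1.15 for Pdia3. For Dppa4, Asphd2, Mycn and Mlf1, which had a group at 0 in each library, the fitted differences of 14.57, -10.58, -7.23 and -6.63 depend on the prior count and are no measure of size.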

How the results depend on the processing

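With 1 library left out, the difference of effects was higher in MCA205 for 3419 to 4047 genes and lower for 2939 to 3589. Effects in MCA205 cells were higher for 2476 to 3543 and lower for 2003 to 3023, and in TC1 cells for 3067 to 3825 and 3513 to 4104. Opposite effects numbered 724 to 1028 (higher in MCA205) and 511 to 778, equal effects 251 to 487 up and 252 to 473 down, and effects of different size 168 to 410 up and 157 to 339 down. Effects in 1 line numbered 494 to 729 up and 596 to 836 down in MCA205, and 1275 to 1749 up and 1185 to 1712 down in TC1.

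Other counts that moved by over 1.5 times follow, and the cause was not tested. There, MCA205 alone and TC1 alone name the classes of effects in 1 line, which can hold genes called in both lines. With at least 1 CPM in 3 libraries, 391 genes fell by different sizes. DESeq2 gave 586 equal falls, 428 rises and 433 falls of different size. On log2(FPKM + 1) limma gave 630 equal falls and 1053 rises and 1214 falls in MCA205 alone, it turned round the differences of Mlf1 (0.98) and Ttc9 (0.41), and that of Arhgap6 lost its call (0.27). A replicate block, although same-numbered libraries did not deviate together (r from -0.419 to 0.162), gave 261 and 217 equal and 153 and 136 unequal rises and falls. Without MCA205 sgNAT10 2 and WT 1, MCA205 had 2085 rises and 1649 falls, opposite effects numbered 625 and 417, equal 161 and 133, unequal 120 and 113, and MCA205 alone 409 and 445. A narrower margin than 1.5-fold left 0 equal rises and 0 equal falls by edgeR, 109 and 149 in MCA205 alone and 442 and 358 in TC1 alone. A margin of 2-fold gave 684 and 589 equal, and 1187 and 1220 in MCA205 alone. Without TC1 sgNAT10 1 and WT 1, chosen after the data were seen, 476 genes rose by different sizes. Of 412 class counts 370 kept within 1.5 times. The median SE of a type I interferon gene's difference was 0.66 with all libraries and 0.16 without that TC1 pair.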
